A study of Mus musculus with 4 samples.

Results

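The genes described here encode the subunits of the proteasome, its regulatory caps and its activators. They were chosen by name: every protein-coding gene of the expression table whose symbol is Psm, followed by a, b, c, d or e and a number. The rule found 42 of the 22422 genes in the table. All 42 passed the filter on low values and were tested. Psmb11, a thymus form of a catalytic subunit, is also annotated and was not analysed here.

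RNA of the distal colon was sequenced from 6-week-old female mice that had received 2% dextran sulfate sodium (DSS) for 5 days. DSS damages the colon epithelium and causes colitis. One group carried floxed Elf4 with Villin-Cre, written Elf4fl/fl-Villin-Cre, and the other was wild type, with 2 libraries each. The villin promoter drives Cre in gut epithelium, so the gene for the ETS factor Elf4 was targeted in epithelial cells, while whole tissue was measured. The series design gives C57BL/6 for both genotypes, although C57BL/8 is the strain written on the samples with the deletion. The alleles of the wild-type mice and whether they were littermates are not stated, and no group without DSS was analysed here. Nothing in the labels says that the 2 libraries of a genotype came from separate animals, so p-values measure the spread between these libraries, which may be technical.

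The proteasome cuts proteins that were tagged with ubiquitin into peptides. Its 20S core is a barrel of alpha rings, which gate the entry, and beta rings, whose subunits Psmb5, Psmb6 and Psmb7 carry the cutting sites. Interferon-gamma induces Psmb8, Psmb9 and Psmb10, which take the places of Psmb5, Psmb6 and Psmb7 in newly built cores and turn them into immunoproteasomes, a form that supplies peptides for MHC class I. The 19S cap binds, unfolds and feeds in tagged proteins, and the activators of the Psme genes open the core in other ways. Leukocytes carry immunoproteasomes without further induction, and immunoproteasome subunits are known to increase in inflamed colon.

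Depth was 16023926 and 16425954 reads in the Elf4fl/fl-Villin-Cre libraries and 16134509 and 15885028 reads in the wild-type libraries. Values are normalised reads, which are read counts divided by 1 scaling factor per library. Elf4 measured 897 and 758 normalised reads in Elf4fl/fl-Villin-Cre colon, against 1588 and 1938 in wild type. Its log2 fold change was -1.09 ± 0.16 (standard error), with an adjusted p of 0.0139 (limma with Benjamini-Hochberg adjustment over all genes, the test behind every adjusted p here unless another tool is named). The summed level of 12 epithelium markers was 141572 and 191993 normalised reads in Elf4fl/fl-Villin-Cre colon, against 410078 and 459465 in wild type, and 11 of the 12 markers fell. The summed level of 12 leukocyte markers was 39803 and 26307 in Elf4fl/fl-Villin-Cre colon, against 14824 and 10764 in wild type, and 9 of the 12 rose. The summed level of 10 T and NK cell markers was 1685 and 1288 against 1651 and 935, with none past the threshold by limma or edgeR and 1 higher at an unadjusted p under 0.05. Smooth muscle and fibroblast markers summed to 119712 and 145463 against 143133 and 109034, with 2 of 10 higher and 1 lower. None of these markers was at 0 in all libraries. Their part in the results below was not tested. In whole tissue, fewer cells of a type and less RNA per cell cannot be told apart.

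Of the 42 proteasome genes, 1 fell in Elf4fl/fl-Villin-Cre colon and none rose at an adjusted p under 0.05. The gene that fell was Psmb10, an induced catalytic subunit. Over all 22050 tested genes, 15.5% passed the same threshold, 6.86% higher and 8.6% lower. Under scaling by library totals, 77.5% of the calls over all genes were on the higher side, against 44.4% with the deposited scaling. At an unadjusted p under 0.05, 4 proteasome genes were lower (Psmb10, Psmd2, Psmb2 and Psmd5), beside 15.4% of all genes, and 1 was higher (Psma8), beside 16.7%. edgeR's quasi-likelihood test on the recovered reads tested 41 of the genes and called Psmb10 alone, with 23.4% of all genes called. DESeq2 called Psmb10 and Psmd2, with 24.2% of all genes called. Both shares count either direction. Lower alone were 2341 of 17337 genes by edgeR and 2565 of 17184 by DESeq2.

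In 34 of the 42 genes the log2 fold change was below 0, which was so for 43.8% of all genes. The median was -0.16 over the 42 genes and 0.11 over all genes with the deposited scaling, but the proteasome median was 0.16 under scaling by library totals and 0.08 under quantile scaling. Library totals moved the median of all genes by 0.30 and that of the proteasome genes by 0.32, close to the same amount for each gene with more than a few reads, so genes slightly below 0 turn above 0 by construction. Relative to that median, proteasome genes were at -0.26 with the deposited scaling and -0.25 with library totals, and at 0.06 with quantile scaling. The sign of the group therefore turned with the scaling. Apart from Psma8, the proteasome genes lay between percentiles 66.6 and 96.5 of the levels of tested genes. The shares over all genes thus include many genes at lower levels, and genes of like level were not compared. Psma3, Psmd6 and Psmc6 rose under library totals, with log2 fold changes of 0.62, 0.57 and 0.55 and adjusted p of 0.0291, 0.0272 and 0.0474, at a setting where 18.7% of all tested genes were called higher. In 23 genes both Elf4fl/fl-Villin-Cre libraries lay below both wild-type libraries, and in 6 genes above them, where 27.2% and 35.0% of all tested genes did the same. The 13 other genes overlapped between genotypes. Overlap of single genes, here and below, was judged with the deposited scaling alone.

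**Figure D1:**
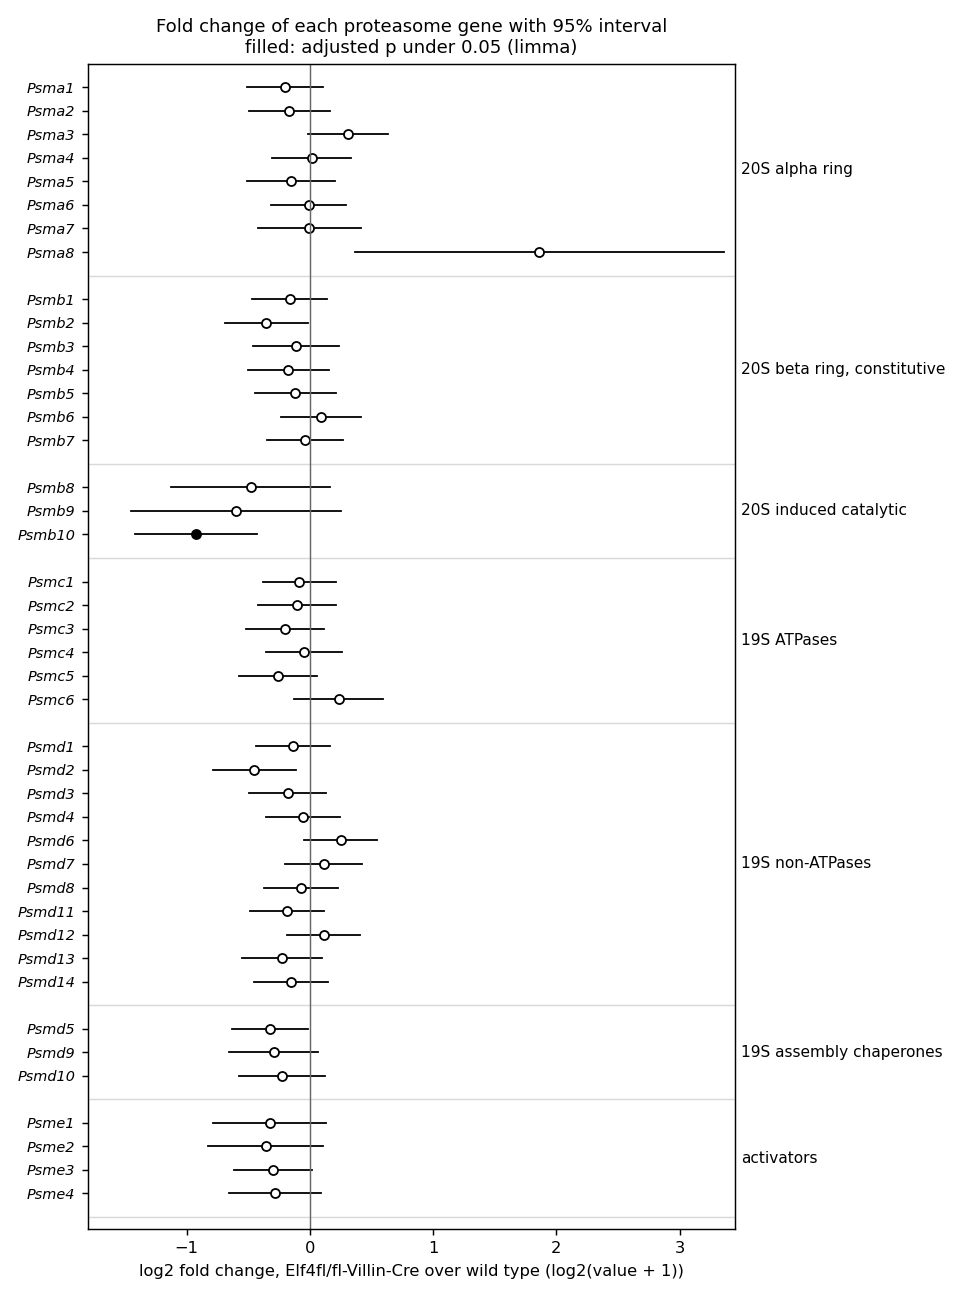
Log2 fold change of Elf4fl/fl-Villin-Cre over wild type for the 42 proteasome genes, on the log2(value + 1) scale, with 95% intervals (limma, 2 libraries per genotype), grouped by subcomplex. Psmb10 alone is filled (adjusted p under 0.05). Most points lie left of 0 with the deposited scaling, and the group's median turns to the right of 0 under library totals and quantile scaling. The wide interval of Psma8 rests on 8 and 12 reads in Elf4fl/fl-Villin-Cre colon against 2 and 1 in wild type.

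Among the induced catalytic subunits, Psmb10 fell to 0.527 times its wild-type level. Psmb10 (ENSMUSG00000031897, chromosome 8, 105935735 to 105938444, minus strand, mm10) measured 2490.4 and 1937 normalised reads in Elf4fl/fl-Villin-Cre colon, against 4846 and 3590.0 in wild type. The genotypes did not overlap. Its log2 fold change was -0.92 ± 0.20 (standard error, 95% interval -1.42 to -0.43), with an adjusted p of 0.0332 by limma, 0.0241 by edgeR and 0.000231 by DESeq2. The fold change stayed below 0 under every alternative run, between -1.17 and -0.61, but the gene missed the threshold with library totals (adjusted p 0.0858), quantile scaling (0.147) and no variance trend (0.142). It also missed the threshold in every limma fit with 1 library left out, where over all genes none passed. In edgeR, leaving out replicate 1 of the Elf4fl/fl-Villin-Cre group gave an adjusted p of 0.0160, and leaving out its replicate 2 gave 0.0515. Leaving out replicate 1 of the wild type gave 0.0776 by edgeR, and leaving out its replicate 2 gave 0.0461.

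Psmb8 and Psmb9, the neighbours of the peptide transporter genes Tap1 and Tap2 in the MHC region, did not pass the threshold. Psmb8 (chromosome 17, 34197721 to 34201454, plus strand) measured 2435 and 1679 normalised reads in Elf4fl/fl-Villin-Cre colon, against 3493 and 2283 in wild type. Its log2 fold change was -0.48 ± 0.26 (95% interval -1.13 to 0.16), with an adjusted p of 0.265. Psmb9 (chromosome 17, 34181987 to 34187764, minus strand) measured 1769 and 1041 against 2768 and 1533. Its log2 fold change was -0.60 ± 0.35 (95% interval -1.46 to 0.25), with an adjusted p of 0.292. For both genes replicate 1 of the Elf4fl/fl-Villin-Cre group lay above replicate 2 of the wild type, so the genotypes overlapped. Without Elf4fl/fl-Villin-Cre replicate 1, edgeR called Psmb9, with a log2 fold change of -1.09 and an adjusted p of 0.0479. The exons of Psmb9 and Tap1 share 212 bases on opposite strands. Whether the counting used strand is not given in the sources used here, so reads from that stretch may have been assigned to either gene.

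The spread between replicates in the induced subunits was wide and ran the same way in both genotypes. The library numbered 1 exceeded the library numbered 2 by 0.54 (Psmb8), 0.76 (Psmb9) and 0.36 (Psmb10) on the log2 scale in Elf4fl/fl-Villin-Cre colon, and by 0.61, 0.85 and 0.43 in wild type. Among 11785 tested genes with a mean value of at least 100, the median absolute difference between replicates was 0.16 in Elf4fl/fl-Villin-Cre colon and 0.19 in wild type. Tap1, a peptide transporter gene named after its values were seen, differed by 0.90 and 0.88 in the same direction. Irf1, named in the same way, differed by 0.78 in Elf4fl/fl-Villin-Cre colon but by 0.09 in wild type. B2m differed by 0.52 and 0.14. Calr (-0.13 and -0.03) and Pdia3 (-0.04 and -0.04) went slightly the other way. The constitutive partners Psmb5, Psmb6 and Psmb7 differed by -0.15, -0.05 and -0.10 in Elf4fl/fl-Villin-Cre colon and by 0.15, 0.21 and 0.08 in wild type. In the library numbered 1 of each genotype, the T and NK cell marker sum and the leukocyte marker sum were also higher, and the epithelium marker sum was lower, as given above. Their part in the spread was not tested. Replicate numbers carry no stated meaning in the labels.

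**Figure D2:**
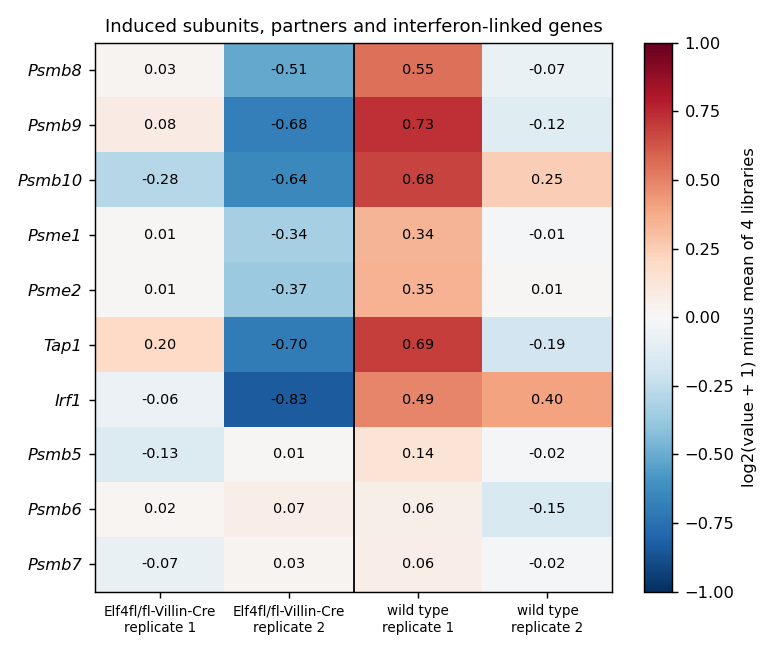
Deviation of each library from the mean of the 4 libraries, as log2(value + 1), for the induced subunits, the PA28 subunits Psme1 and Psme2, the interferon-linked genes Tap1 and Irf1, and the constitutive catalytic subunits. Psmb8, Psmb9, Psmb10 and Tap1 are lowest in Elf4fl/fl-Villin-Cre replicate 2 (-0.51, -0.68, -0.64 and -0.70). So are Psme1, Psme2 and Irf1 (-0.34, -0.37 and -0.83). Psmb5, Psmb6 and Psmb7 stay between -0.15 and 0.14 in each library.

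Within a library, the ratio of an induced subunit to its constitutive partner does not depend on a scaling that divides the library by 1 factor, as the deposited one and library totals do. The ratios were not computed under quantile scaling. The Psmb10 to Psmb7 ratio of normalised reads was 2.14 and 1.55 in Elf4fl/fl-Villin-Cre colon, against 3.79 and 2.98 in wild type, and the genotypes did not overlap. The difference was -0.88 on the log2 scale, or 0.542 times the wild-type ratio. The exact two-sided permutation test gave p = 0.333, the smallest that 2 against 2 libraries can reach. The Psmb9 to Psmb6 ratio was 1.05 and 0.598 against 1.60 and 1.03, a log2 difference of -0.69 (exact permutation p = 0.667). The Psmb8 to Psmb5 ratio was 2.32 and 1.44 against 2.76 and 2.01, a log2 difference of -0.36 (exact permutation p = 0.667). In both of these the genotypes overlapped. With any 1 library left out, each of the 3 differences stayed below 0, but their sizes moved. The Psmb8 to Psmb5 difference was -0.71 when replicate 1 of the Elf4fl/fl-Villin-Cre group was left out and -0.02 when its replicate 2 was. The Psmb9 to Psmb6 difference was -1.10 and -0.28 in the same fits, and both differences lay between those values when a wild-type library was left out.

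**Figure D3:**
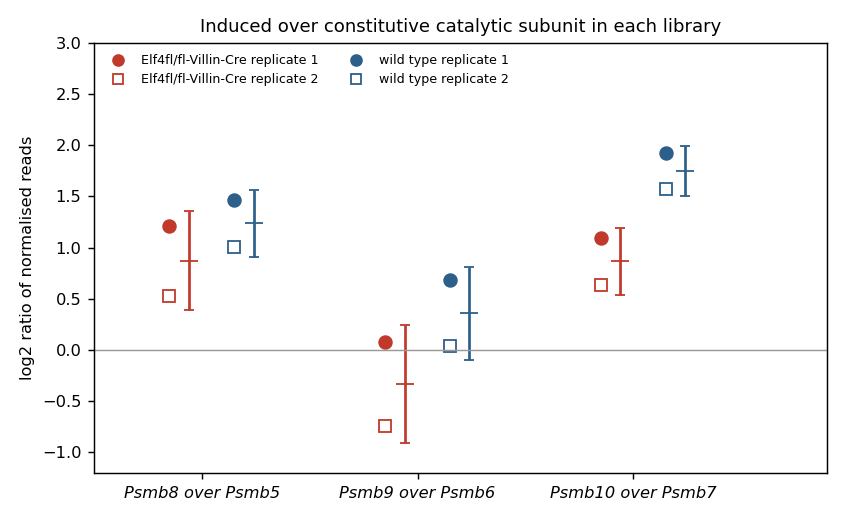
Log2 ratio of normalised reads of each induced catalytic subunit over its constitutive partner in each library, with the mean and SD of the 2 libraries of each genotype beside the points. The Psmb10 over Psmb7 ratios of the Elf4fl/fl-Villin-Cre libraries (1.10 and 0.63) lie below both wild-type ratios (1.92 and 1.57), and the other pairs overlap.

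Per kilobase of the principal transcript, the induced subunits made up 52.4% and 41.9% of the summed level of the 6 catalytic subunits in Elf4fl/fl-Villin-Cre colon, against 62.8% and 55.8% in wild type. The genotypes did not overlap in this share, which includes Psmb10, and it was not computed without Psmb10. Psmb8 and Psmb9 each overlapped per kilobase. They were at 1496 and 1308 in Elf4fl/fl-Villin-Cre replicate 1, against 1403 and 1134 in wild-type replicate 2. Psmb10 averaged 1689 ± 298 normalised reads per kilobase in Elf4fl/fl-Villin-Cre colon and 3217 ± 677 in wild type (SD, n = 2 each). In wild type this was the highest level per kilobase among the 42 genes. Psmb8 and Psmb9 averaged 1264 ± 328 and 1039 ± 381 in Elf4fl/fl-Villin-Cre colon and 1774 ± 525 and 1591 ± 646 in wild type. The Psmb10 to Psmb9 ratio of normalised reads was 1.41 and 1.86 in Elf4fl/fl-Villin-Cre colon, against 1.75 and 2.34 in wild type, and overlapped. The ratio of Psmb9 to its neighbour Tap1 was 0.445 and 0.488 in Elf4fl/fl-Villin-Cre colon, against 0.494 and 0.505 in wild type.

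The promoters of 4 members are shown to set an induced pair beside a constitutive catalytic subunit and a 19S subunit. Windows of 250 bases before to 50 bases after the annotated start, from RefSeq on GRCm38.p6, were found for 35 of the 42 genes. Capitals mark matches, on either strand, to CCGGAA (the core bound by ETS factors), TGACNNNGC (the element of the factors Nfe2l1 and Nfe2l2), GAAANNGAA (a pair of sites of interferon regulatory factors) and TTCNNNGAA (the element bound by STAT factors). All are printed 5′ to 3′ in the direction of the gene.
Psmb8, chr17:34197945-34198244, plus strand: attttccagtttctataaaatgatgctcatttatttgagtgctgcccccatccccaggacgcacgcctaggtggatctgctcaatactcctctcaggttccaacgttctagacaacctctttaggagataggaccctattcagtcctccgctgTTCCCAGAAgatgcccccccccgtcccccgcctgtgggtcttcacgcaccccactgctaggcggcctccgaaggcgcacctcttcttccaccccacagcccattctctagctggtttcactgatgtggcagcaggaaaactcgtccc
Psmb9, chr17:34187281-34187580, minus strand: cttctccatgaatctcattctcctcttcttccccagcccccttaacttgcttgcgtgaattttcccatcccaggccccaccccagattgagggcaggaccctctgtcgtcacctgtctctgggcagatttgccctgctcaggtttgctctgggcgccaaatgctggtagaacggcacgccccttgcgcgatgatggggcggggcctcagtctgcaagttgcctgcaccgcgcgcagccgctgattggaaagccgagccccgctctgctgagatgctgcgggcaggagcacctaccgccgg
Psmb5, chr14:54617946-54618245, minus strand: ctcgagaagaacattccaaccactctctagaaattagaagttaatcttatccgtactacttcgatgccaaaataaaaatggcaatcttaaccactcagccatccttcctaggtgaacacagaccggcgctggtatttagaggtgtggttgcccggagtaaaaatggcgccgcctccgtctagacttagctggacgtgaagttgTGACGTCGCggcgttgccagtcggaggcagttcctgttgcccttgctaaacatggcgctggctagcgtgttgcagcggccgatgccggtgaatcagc
Psmd2, chr16:20651402-20651701, plus strand: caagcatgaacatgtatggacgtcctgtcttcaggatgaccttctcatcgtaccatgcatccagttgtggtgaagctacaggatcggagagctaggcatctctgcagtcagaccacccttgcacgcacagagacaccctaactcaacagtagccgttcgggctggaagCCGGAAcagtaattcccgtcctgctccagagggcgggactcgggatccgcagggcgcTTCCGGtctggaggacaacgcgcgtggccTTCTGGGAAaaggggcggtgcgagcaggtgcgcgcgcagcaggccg

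The Psmb8 and Psmb9 windows lie wholly inside the gene spans given above, because the start used lies inside the outermost annotated start. Bases before that outermost start (34197721 for Psmb8, 34187764 for Psmb9) were not searched. The Psmb8 window held 1 STAT match, starting at position -97 from the start. The Psmb9 window held no match to any of the 4 motifs. It shares 275 bases with the window of Tap1, which is transcribed in the opposite direction from a start 226 bases away. The Psmb5 window held 1 match to the Nfe2l1 and Nfe2l2 element, at position -47. The Psmd2 window held ETS matches at positions -82 and -25 and a STAT match 4 bases downstream of the start. Of the 35 genes, 17 (48.6%) held the ETS core in at least 1 of their windows, against 16.7% of 27025 genes with a window. Those genes were not matched for expression level or base composition. Whether matched genes hold the core as often was not tested. The core was found for 4 of 5 genes of 19S ATPases, 6 of 9 of 19S non-ATPases and 3 of 7 alpha subunits. It was found for 1 of 4 constitutive beta subunits, 1 of 3 chaperones, 2 of 4 activators and none of the 3 induced subunits. With so few genes, these shares do not set the induced subunits apart from the constitutive beta ring. The Nfe2l1 and Nfe2l2 element was found for 6 genes (17.1%, against 14.0% of all genes). The interferon regulatory factor pair was found for 6 (17.1%, against 9.76%): Psmb3, Psmb4, Psmc2, Psmd4, Psmd9 and Psme1, and none of the 3 induced subunits. The STAT element was found for 2 (5.71%, against 9.55%), Psmb8 and Psmd2. The Psmb10 window, not printed, held no match to any of the 4 motifs. A match is a run of letters and not a measured binding site, and the absence of a match holds only for the window searched. In Psmb4 an ETS match overlapped an interferon regulatory factor match.

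In the alpha ring, which forms the gate of the core, none of the 8 genes passed the threshold by limma. At an unadjusted p under 0.05, 1 (Psma8) was higher, beside 16.7% of all genes. None of the 7 with an adjusted p from edgeR and DESeq2 passed with those tools. Psma1 to Psma7 lay between 900.5 and 2575 normalised reads in all libraries. The lowest fold change was that of Psma1, with 2159 and 2129.6 normalised reads in Elf4fl/fl-Villin-Cre colon against 2575 and 2365 in wild type (log2 fold change -0.20 ± 0.13, adjusted p 0.324). Psma3 measured 1757 and 1545 against 1371 and 1294 (0.31 ± 0.13, adjusted p 0.175), and of the settings run it passed only under library totals, as given above. Psma2 and Psma5 had log2 fold changes of -0.17 and -0.15, and Psma4, Psma6 and Psma7 had log2 fold changes of 0.01, -0.01 and -0.00 with the deposited scaling. Psma8, a form of the alpha ring known from testis, was near the limit of detection, with 8 and 12 reads in Elf4fl/fl-Villin-Cre colon and 2 and 1 in wild type (adjusted p 0.0951).

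The constitutive beta ring also held no gene past the threshold by limma, edgeR or DESeq2. At an unadjusted p under 0.05, 1 of 7 was lower, beside 15.4% of all genes. That gene was Psmb2, a structural subunit, with 1047 and 994 normalised reads in Elf4fl/fl-Villin-Cre colon against 1404 and 1209.7 in wild type (log2 fold change -0.35 ± 0.14, adjusted p 0.138). The genotypes did not overlap. Psmb5, which carries the chymotrypsin-like site, measured 1049 and 1162 against 1264 and 1137 (-0.12 ± 0.13, 95% interval -0.45 to 0.21, adjusted p 0.588). Psmb6, which carries the caspase-like site, measured 1680.1 and 1739.95 against 1726 and 1495 (0.09 ± 0.13, 95% interval -0.24 to 0.42, adjusted p 0.689). Psmb7, which carries the trypsin-like site, measured 1164 and 1250.0 against 1279 and 1206.5 (-0.04 ± 0.13, 95% interval -0.35 to 0.27, adjusted p 0.847). All 3 catalytic genes overlapped between genotypes. Psmb3 and Psmb4 had fold changes of -0.11 and -0.18, and Psmb1 of -0.16. The exons of Psmb7 share 405 bases with Nek6 on the opposite strand.

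In the 19S cap, none of the 6 ATPases that unfold substrates passed the threshold by limma, edgeR or DESeq2, and none had an unadjusted p under 0.05. Psmc5 was lowest, with 1116 and 1242 normalised reads in Elf4fl/fl-Villin-Cre colon against 1445 and 1374 in wild type (log2 fold change -0.26 ± 0.13, adjusted p 0.228). Psmc6 was highest, with 1673 and 1488 against 1234 and 1462 (0.23 ± 0.15, adjusted p 0.328). Psmc5 lay below the wild-type libraries and Psmc6 above them in both Elf4fl/fl-Villin-Cre libraries, as 27.2% and 35.0% of all tested genes did. The other ATPase genes had fold changes between -0.20 (Psmc3) and -0.05 (Psmc4).

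Of the 11 non-ATPase subunits of the cap, none passed the threshold by limma or edgeR, and DESeq2 called Psmd2. Psmd2, a large scaffold of the cap's base, measured 2306 and 2535 normalised reads in Elf4fl/fl-Villin-Cre colon, against 3500.2 and 3121 in wild type. Its log2 fold change was -0.45 ± 0.14 (95% interval -0.79 to -0.11), with an adjusted p of 0.0791 by limma, 0.0532 by edgeR and 0.0174 by DESeq2. Psmd1, the other large scaffold, measured 1318 and 1264 against 1375 and 1466 (-0.14 ± 0.12, adjusted p 0.491). Psmd4, a ubiquitin receptor, measured 1624 and 1746 against 1746.0 and 1751 (-0.05 ± 0.12, adjusted p 0.798). Psmd14, which strips ubiquitin from substrates, measured 779 and 756 against 846 and 858 (-0.15 ± 0.12, adjusted p 0.446). Psmd6 was the highest of the group, with 1336 and 1278 against 1095 and 1102 (0.25 ± 0.12, adjusted p 0.217). The 6 other genes (Psmd3, Psmd7, Psmd8, Psmd11, Psmd12 and Psmd13) had fold changes between -0.23 (Psmd13) and 0.11 (Psmd12). With the deposited scaling all 11 genes were apart between genotypes, 8 lower and 3 higher (Psmd6, Psmd7 and Psmd12). Of all tested genes, 62.2% were apart in either direction. These directions were not counted under other scalings, and the sign of small changes turned with the scaling, as given above.

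The 3 chaperones that help to build the base of the cap, Psmd5, Psmd9 and Psmd10, had the lowest levels per kilobase of the principal transcript apart from Psma8, with averages of 137, 130 and 237 normalised reads per kilobase in Elf4fl/fl-Villin-Cre colon and 171, 160 and 278 in wild type. Per kilobase of all annotated exons, Psmd10 was at 231 in Elf4fl/fl-Villin-Cre colon and 271 in wild type, above Psmd11 at 147 and 168. Psmd5 measured 598 and 605 normalised reads in Elf4fl/fl-Villin-Cre colon, against 738 and 770.3 in wild type (log2 fold change -0.33 ± 0.13, adjusted p 0.139). Psmd9 measured 316 and 361 against 423 and 407 (-0.30 ± 0.15, adjusted p 0.231). Psmd10, also called gankyrin, measured 351 and 328 against 383 and 412 (-0.23 ± 0.14, adjusted p 0.331). In each of them both Elf4fl/fl-Villin-Cre libraries lay below both wild-type libraries with the deposited scaling, as in 27.2% of all tested genes. None passed the threshold by limma, edgeR or DESeq2. At an unadjusted p under 0.05, 1 (Psmd5) was lower, beside 15.4% of all genes. Under library totals Psmd10 changed sign, as given below.

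**Figure D4:**
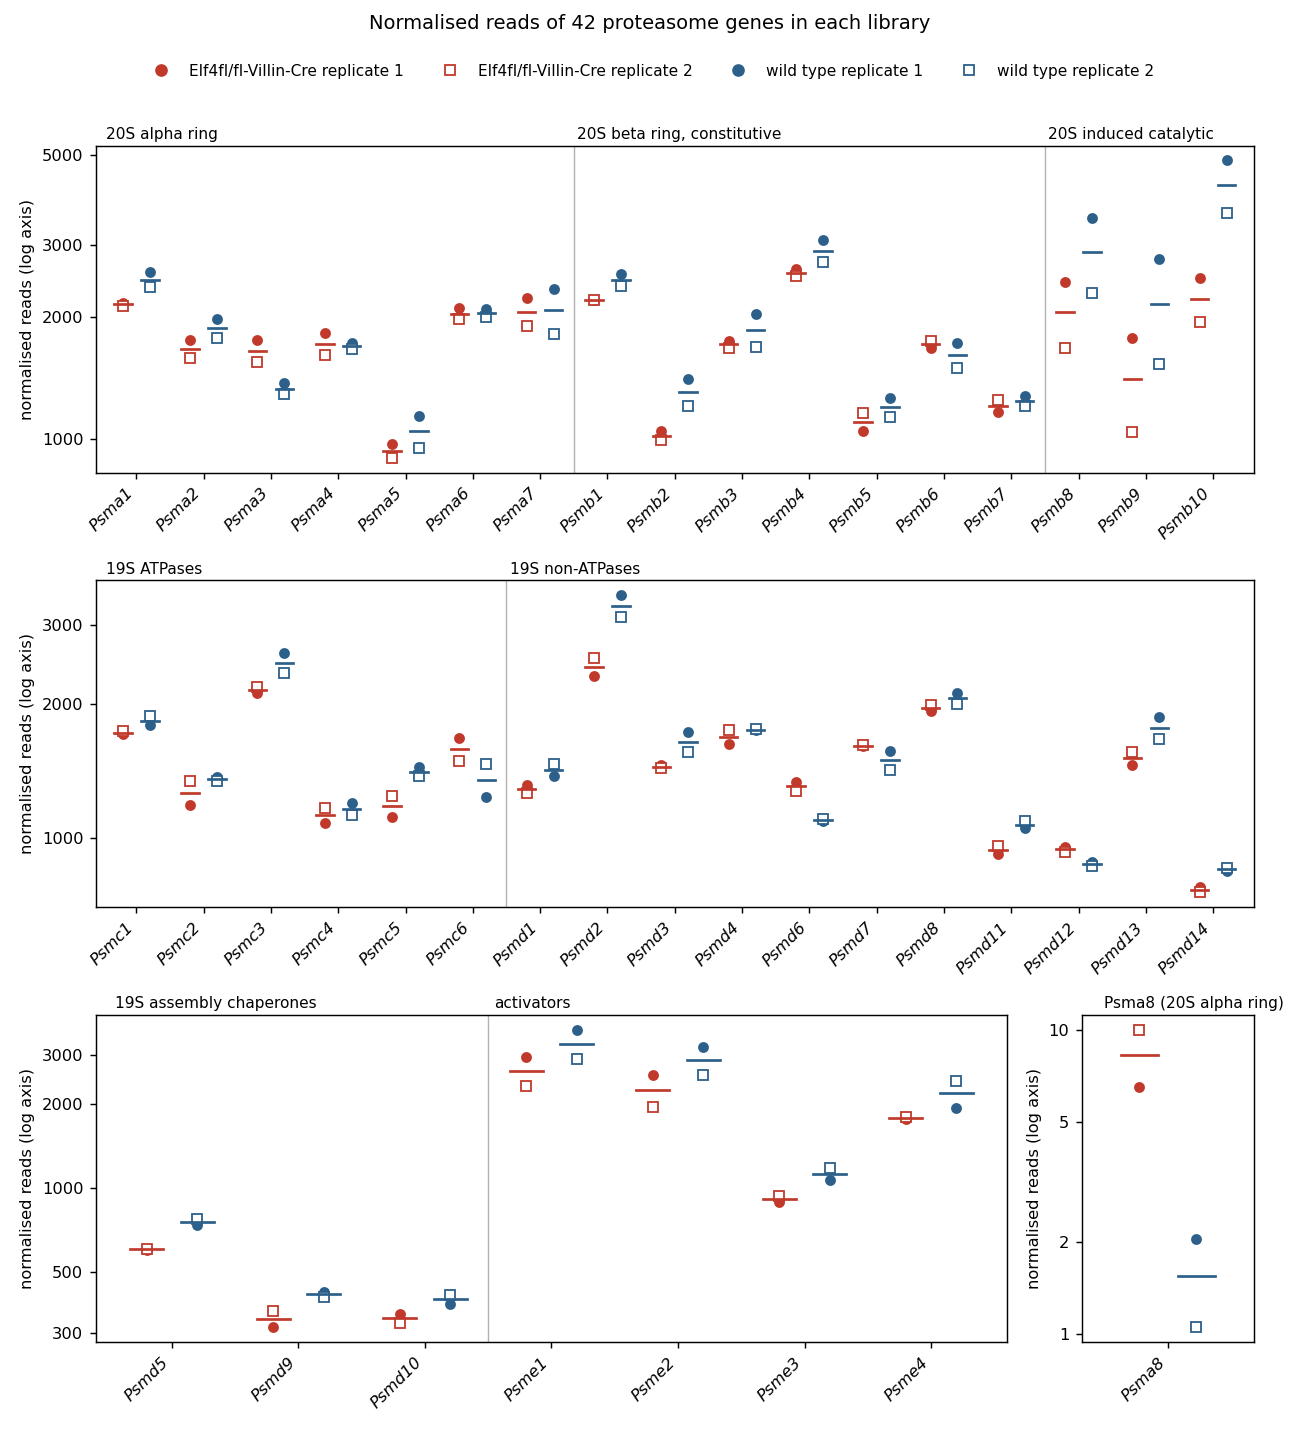
Normalised reads (log axis) of the 42 proteasome genes in each Elf4fl/fl-Villin-Cre library (red) and each wild-type library (blue), with the mean of each pair as a line. Psmb10 shows the widest gap between genotypes apart from Psma8, which has its own panel (8 and 12 against 2 and 1 reads), and the points of a genotype lie close together in most other genes.

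None of the 4 activators passed the threshold by limma, edgeR or DESeq2, and none had an unadjusted p under 0.05. Psme1 and Psme2 encode the PA28 alpha and beta subunits, which interferon-gamma induces together with the immunoproteasome. Psme1 measured 2955 and 2324 normalised reads in Elf4fl/fl-Villin-Cre colon, against 3709 and 2908 in wild type (log2 fold change -0.33 ± 0.19, adjusted p 0.289). Psme2 measured 2553 and 1952 against 3222 and 2551 (-0.36 ± 0.19, adjusted p 0.252). Its level is uncertain because a near-identical gene, Psme2b, measured 779 and 589 against 1035 and 772, and the counting could split reads between them. The Psme1 to Psme2 ratio was 1.16 and 1.19 in Elf4fl/fl-Villin-Cre colon, against 1.15 and 1.14 in wild type. Psme1 and Psme2 overlapped between genotypes, and both were higher in the library numbered 1, as the induced subunits were.

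Psme3, the nuclear PA28 gamma, measured 888 and 934 normalised reads in Elf4fl/fl-Villin-Cre colon against 1069 and 1179 in wild type (log2 fold change -0.30 ± 0.13, adjusted p 0.170). Psme4, the large activator PA200, measured 1770 and 1804 against 1943 and 2435 (-0.28 ± 0.15, adjusted p 0.258). Both were below the wild-type libraries in both Elf4fl/fl-Villin-Cre libraries, as were 27.2% of all tested genes. Neither Psme3 nor Psme4 was higher in the library numbered 1.

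The subunits of one complex were not at one RNA level. Per kilobase, the 14 constitutive core genes without Psma8 ranged between 573 and 2254 normalised reads in Elf4fl/fl-Villin-Cre colon (3.93-fold) and between 468 and 2458 in wild type (5.25-fold). The median was 1116 in Elf4fl/fl-Villin-Cre colon and 1151 in wild type for the alpha ring, 1252 and 1522 for the constitutive beta ring, and 1263.5 and 1774 for the induced subunits. It was 838 and 939 for the 19S ATPases, 759 and 792 for the 19S non-ATPases and 137 and 171 for the 19S chaperones. For the activators it was 1342 and 1699, with Psme1 at 2374 and 2975 and Psme2 at 2342 and 3001, but Psme3 at 342 and 422 and Psme4 at 275 and 337, in the same order of genotypes. These levels depend on the transcript length used: over all annotated exons the induced subunits had medians of 608 and 854, below the 848 of the constitutive beta ring in Elf4fl/fl-Villin-Cre colon and near its 860.5 in wild type.

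Of 24 other genes that belong to the proteasome, build it, control it or bring it substrates, 2 fell by limma, beside 8.6% of all genes, and none rose. At an unadjusted p under 0.05, 4 were lower and 1 higher, beside 15.4% and 16.7% of all genes. edgeR and DESeq2 each called 3 lower and none higher, beside 23.4% and 24.2% of all genes in either direction. Lower alone were 2341 of 17337 genes by edgeR and 2565 of 17184 by DESeq2. With 1 library left out, edgeR called 2 lower without Elf4fl/fl-Villin-Cre replicate 2, 1 lower without wild-type replicate 1 and none in the other fits. The list's median log2 fold change was -0.08, against 0.11 over all genes. Uba1, the enzyme that activates ubiquitin, measured 2973 and 2938 normalised reads in Elf4fl/fl-Villin-Cre colon, against 4640.2 and 4560.5 in wild type (log2 fold change -0.64 ± 0.13, adjusted p 0.0256). Ubqln1, a shuttle that carries tagged proteins to the proteasome, measured 1170.3 and 1267 against 1795 and 1967 (-0.63 ± 0.13, adjusted p 0.0284). In both the genotypes were apart and the replicates were close. Under library totals and under quantile scaling neither passed, with Uba1 at -0.32 and -0.30 and Ubqln1 at -0.31 and -0.41, and 3 other genes of the list rose under library totals and 1 under quantile scaling.

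MHC class I presentation, the pathway that uses the peptides, had 3 of 12 genes lower by limma, beside 8.6% of all genes, and none higher, and the same counts by edgeR. DESeq2 called 6 lower and none higher, and edgeR called 0 or 1 lower with 1 library left out: none without either wild-type library and 1 without either Elf4fl/fl-Villin-Cre library. At an unadjusted p under 0.05, 5 genes were lower and none higher, beside 15.4% and 16.7% of all genes. With all libraries, edgeR called 23.4% of all genes and DESeq2 24.2%, in either direction. Lower alone were 2341 of 17337 genes by edgeR and 2565 of 17184 by DESeq2. The median log2 fold change was -0.52. Calr, a chaperone of the peptide-loading complex, measured 5647 and 6176 normalised reads in Elf4fl/fl-Villin-Cre colon, against 9908 and 10128 in wild type (log2 fold change -0.76 ± 0.15, adjusted p 0.0235). Pdia3, which works with it, measured 5904 and 6072 against 9207 and 9495 (-0.64 ± 0.14, adjusted p 0.0330). Tapbpl, a peptide editor of MHC class I, measured 1035 and 773 against 1810 and 1412 (-0.84 ± 0.20, adjusted p 0.0410). Tap1, named after its values were seen, measured 3975 and 2135 against 5602 and 3034 (-0.50 ± 0.38, adjusted p 0.414), and it overlapped. The rest of the list did not pass by limma. H2-D1, H2-K1 and Tapbp had log2 fold changes of -0.65, -0.62 and -0.54, and DESeq2 called them. Tap2, Erap1, Nlrc5, Canx and B2m were at -0.25, -0.20, -0.10, -0.01 and 0.01, and no tool called them. Under library totals and under quantile scaling none of the 12 passed, with Calr at -0.45 and -0.38, Pdia3 at -0.33 and -0.27 and Tapbpl at -0.52 and -0.67.

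In the interferon-gamma signalling list, 2 of 9 genes fell by limma, beside 8.6% of all genes, and none rose. At an unadjusted p under 0.05, 5 genes were lower and none higher, beside 15.4% and 16.7% of all genes. The median log2 fold change was -0.34. edgeR, with 8 of the genes tested, also called 2 lower and none higher, and DESeq2 called 4 lower and none higher. Over all genes edgeR called 23.4% and DESeq2 24.2%, in either direction. Lower alone were 2341 of 17337 genes by edgeR and 2565 of 17184 by DESeq2. With 1 library left out, edgeR called 2 lower without Elf4fl/fl-Villin-Cre replicate 1, 1 lower and 1 higher when its replicate 2 was left out, 3 lower without wild-type replicate 1 and none when its replicate 2 was left out. Ifngr2, a chain of the receptor, measured 1589 and 2077 normalised reads in Elf4fl/fl-Villin-Cre colon, against 2964 and 3473 in wild type (log2 fold change -0.82 ± 0.18, adjusted p 0.0315). Irf2, an interferon regulatory factor, measured 669 and 612 against 932 and 1080.0 (-0.65 ± 0.14, adjusted p 0.0325). Irf1, which activates immunoproteasome genes, was also named after its values were seen. It measured 5114 and 2986 against 7483 and 7029 (-0.89 ± 0.26, adjusted p 0.0706 by limma, 0.0661 by edgeR and 0.00631 by DESeq2). Under library totals and under quantile scaling none of the 9 passed, with Ifngr2 at -0.50 and -0.53 and Irf2 at -0.33 and -0.57. Ifng itself was seen in 30 and 1 reads in Elf4fl/fl-Villin-Cre colon, against 4 and 2 in wild type, too few to compare. The lower calls in these lists lie beside the lower epithelium and higher leukocyte marker sums given above, whose part in them was not tested.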

How the data were processed

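The deposited table holds 1 normalised signal per gene and library, made by the authors. Values above 0 rose in steps of 1 fixed size in each library, as counts do that were divided by a single factor. Divided by that size, 100% of values were whole reads (tolerance 0.01), and 1 read was worth 0.814 and 0.836 in Elf4fl/fl-Villin-Cre colon and 1.03 and 1.05 in wild type. Reads were placed on mm10, per the submitters' processing notes. Not given in the sources used here are the aligner, the counter, the strandedness and the scaling tool. Trizol was used for the RNA and Illumina protocols for the libraries, per the labels.

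Symbols came from GENCODE mouse release 21, which matched 22376 of 22422 identifiers (99.8%). Genes with a mean value of at least 1 (22050) were tested on log2(value + 1) with limma 3.58.1 in R 4.3.3 (variance trend, no covariate, 2 residual degrees of freedom), with Benjamini-Hochberg adjustment over all of them and a threshold of 0.05. A fold change on this scale understates the change of low genes. edgeR 4.0.16 (quasi-likelihood, TMM) and DESeq2 1.42.0 ran on the recovered reads as alternatives, beside other scalings, pseudocounts, filters and left-out libraries. The code was tested on simulated data. Levels per kilobase used the exons of the APPRIS principal transcript. Ratios were compared by exact permutation tests. Exons of 7 members overlap those of another gene in the table on the opposite strand.

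The members and all gene lists were chosen with earlier results of these data known. Named genes were the catalytic and activator genes, the members with the highest and lowest fold change of each subcomplex, and from each list up to 5 genes past the threshold by smallest p. Psma3 and the other members given in passing, Tap1, Irf1 and Ifng were chosen after their values were seen. Some genes of the lists are not reported here and were left out of the lists' counts.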

Additional observations from a re-analysis of the deposited data

How the results depend on the processing

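With 2 libraries per genotype, the count of calls depended on how the spread was estimated. Over all genes, 1512 were higher and 1897 lower as reported; scaling by library totals gave 4114 and 1194, and limma without a variance trend gave 0 and 0. With 1 library left out, limma called 0 genes in either direction (1 residual degree of freedom), and edgeR called 476 to 1563 higher and 809 to 2191 lower, lowest without wild-type replicate 2 (844 higher without Elf4fl/fl-Villin-Cre replicate 1). Among the proteasome genes, 1 was lower and 0 were higher as reported. The lower count was 2 by DESeq2, 0 with library totals, with quantile scaling and with no variance trend, 0 in every limma fit with 1 library left out, and 0 to 2 in edgeR fits with 1 library left out; library totals gave 3 higher. The edgeR fits with 1 library left out, and the all-exon lengths below, were added after seeing the data. In fits with 1 library left out the lone library of a genotype is assumed to vary like the others. Other pseudocounts and filters on low values, and edgeR with or without a filter, kept Psmb10 as the 1 call.

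The labels do not say what the replicate numbers mean, and same-numbered libraries deviated together only weakly (correlation 0.104). A fit with the replicate number as a block called 3 proteasome genes lower and 0 higher (Psmb10, adjusted p 0.00391; Psmb9, 0.0172; Psmb8, 0.0363; limma), and Tap1 and Irf1 (0.0319 and 0.0178), with 2066 genes higher and 2445 lower over all genes. It called 6 genes of the MHC class I list lower, 4 of the interferon-gamma list lower, and 3 of the assembly and delivery list lower and 1 higher.

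Some directions turned. Library totals shifted the proteasome genes upward together by a median of 0.32, which by construction turns small negative values; they gave a median of 0.158 over the proteasome genes and log2 fold changes of 0.197 for Psmb5, 0.274 for Psmb7, 0.0141 for Psme3, 0.0328 for Psme4, 0.114 for Psma1, 0.0573 for Psmc5 and 0.0886 for Psmd10. Under quantile scaling, where the cause was not tested, the median was 0.0777, with 0.0390 for Psmb5, 0.128 for Psmb7, 0.0003 for Psme1 and 0.0812 for Psma1. With 1 library left out, limma gave -0.014 to 0.193 for Psmb6 and -0.094 to 0.009 for Psmb7, and edgeR gave -0.0381 for Psmb6 without wild-type replicate 2. The ratio of Psmb10 to Psmb7 stayed between -1.12 and -0.65 on the log2 scale, that of Psmb9 to Psmb6 between -1.10 and -0.28, and that of Psmb8 to Psmb5 between -0.71 and -0.02.

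With all annotated exons as the length, the medians per kilobase (Elf4fl/fl-Villin-Cre, then wild type) were 690.4 and 696 for the alpha ring, 848 and 860.5 for the constitutive beta ring, 608 and 854 for the induced subunits, 671 and 743 for the 19S ATPases, 447 and 392.3 for the 19S non-ATPases, 83.2 and 104 for the chaperones and 752 and 939 for the activators. The order of the non-ATPase medians between genotypes turned.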
